A study of Mus musculus with 13 samples.

Results

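Interferon-stimulated genes are the genes that cells switch on in answer to interferons, and 38 of them were followed here in mouse lung fibroblasts after 2 kinds of lung challenge. The members were chosen by name, as genes well known to answer to interferon, and all 38 were found among the 43346 entries of the table. The RNA sequenced came from mouse lung fibroblasts, which the series design calls Col1a1-GFP, a reporter in which the promoter of a collagen gene switches on green fluorescent protein. The 13 libraries formed 4 groups, namely 2 sham libraries, 3 taken 14 days and 5 taken 30 days after bleomycin, and 3 taken 14 days after pneumonectomy. Bleomycin damages lung tissue, which then scars, whereas pneumonectomy, the surgical removal of lung, is followed by growth of what remains. Sham and bleomycin mice were Col1a1-GFP animals of 8 weeks, whereas the labels of the pneumonectomy libraries give primary sorted fibroblasts and neither strain nor an age in weeks (the deposited table heads the columns of all 13 libraries as young), so any difference in preparation cannot be told apart from pneumonectomy. The labels state no gate for the sort and no sex, and they do not say that libraries came from separate animals, so the p-values measure the spread between these libraries. No day is given for the 2 sham libraries, which serve every comparison with sham. The 3 pneumonectomy libraries carry no number that links them to a column and are called A, B and C.

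Type I interferons (alpha and beta) signal through a receptor whose kinases activate Stat2 and other factors, which join Irf9 and bind the interferon-stimulated response element in promoters. Interferon gamma acts through another receptor and the gamma-activated site. The induced proteins block viral replication at several steps, sense foreign nucleic acid, load antigen on class I molecules and attract T cells, and in the lung they are best known from viral infection. The members fall into transcription factors (Irf1, Irf7, Irf9, Stat2), the ubiquitin-like modifier Isg15 and its protease Usp18, the IFIT RNA-binding proteins (Ifit1, Ifit2, Ifit3), the 2'-5' oligoadenylate synthetase family (Oas1a, Oas2, Oas3, Oasl2) and other antiviral effectors (Rsad2, Mx1, Mx2, Bst2, Eif2ak2). The remaining groups are the nucleic acid sensors and their regulator (Ifih1, Dhx58, Zbp1, Trim25), the ADP-ribosylation genes (Parp9, Parp14, Dtx3l), interferon-inducible GTPases (Gbp2, Gbp3, Gbp7, Igtp), antigen processing (Psmb8, Psmb9, Tap1), chemokines (Cxcl9, Cxcl10) and other induced genes (Ifi44, Ifi27l2a, Xaf1, Rtp4).

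Promoter letters are shown first for 9 members that the results below turn on, because they show the 2 kinds of element through which this gene set is known to be induced. The sequences are RefSeq promoters on GRCm38.p6 (the mm10 assembly), which held 28 of the 38 members. Capitals mark matches to the core of the interferon-stimulated response element, searched on both strands as GAAA, any 2 bases (NN) and GAAA again, with up to 20 bases on either side (the search stopped at the start of transcription).
Isg15, chr4:156200855-156200904, minus strand: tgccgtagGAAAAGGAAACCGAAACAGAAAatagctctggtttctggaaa
Ifit1, chr19:34640784-34640833, plus strand: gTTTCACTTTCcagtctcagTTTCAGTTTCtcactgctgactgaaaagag
Oas1a, chr5:120907526-120907559, minus strand: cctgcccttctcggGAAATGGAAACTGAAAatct
Bst2, chr8:71537567-71537616, minus strand: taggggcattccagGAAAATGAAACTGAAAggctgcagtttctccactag
Igtp, chr11:58199502-58199551, plus strand: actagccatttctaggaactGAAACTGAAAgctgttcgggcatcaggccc
Cxcl10, chr5:92349073-92349122, minus strand: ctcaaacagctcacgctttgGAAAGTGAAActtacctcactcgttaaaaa
Gbp2, chr3:142620584-142620633, plus strand: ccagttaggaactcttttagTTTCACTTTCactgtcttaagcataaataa

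In the next pair the capitals mark the gamma-activated site, searched as TTCNNNGAA, which reads the same pattern on both strands.
Irf1, chr11:53769904-53769952, plus strand: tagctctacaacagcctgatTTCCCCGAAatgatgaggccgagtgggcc
Psmb8, chr17:34198078-34198126, plus strand: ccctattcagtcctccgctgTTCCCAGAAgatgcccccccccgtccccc

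Within the 250 bases before the RefSeq start, the core was present in 13 of the 28 members (46.4%), against 3.46% of all genes with a promoter in the table. The members with a match were Stat2, Isg15, Ifit1, Ifit3, Oas1a, Oas3, Rsad2, Bst2, Gbp2, Gbp3, Gbp7, Igtp and Cxcl10. The gamma-activated site was present in 8 members (28.6%), against 8.13% of all genes, and these were Irf1, Ifit2, Oas1a, Bst2, Eif2ak2, Gbp7, Igtp and Psmb8. In Isg15, Oas1a, Bst2 and Gbp3 the response element cores overlapped each other in tandem, and in Bst2 a gamma-activated site overlapped the cores as well. For Psmb8 and Gbp2 the RefSeq start lies downstream of the gene start given below. The Psmb8 window (from 34198078) and the Gbp2 core (from 142620604) thus lie inside those gene bounds (from 34197721 and 142620602). A match describes these letters and is no measure of binding.

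**Figure D1:**
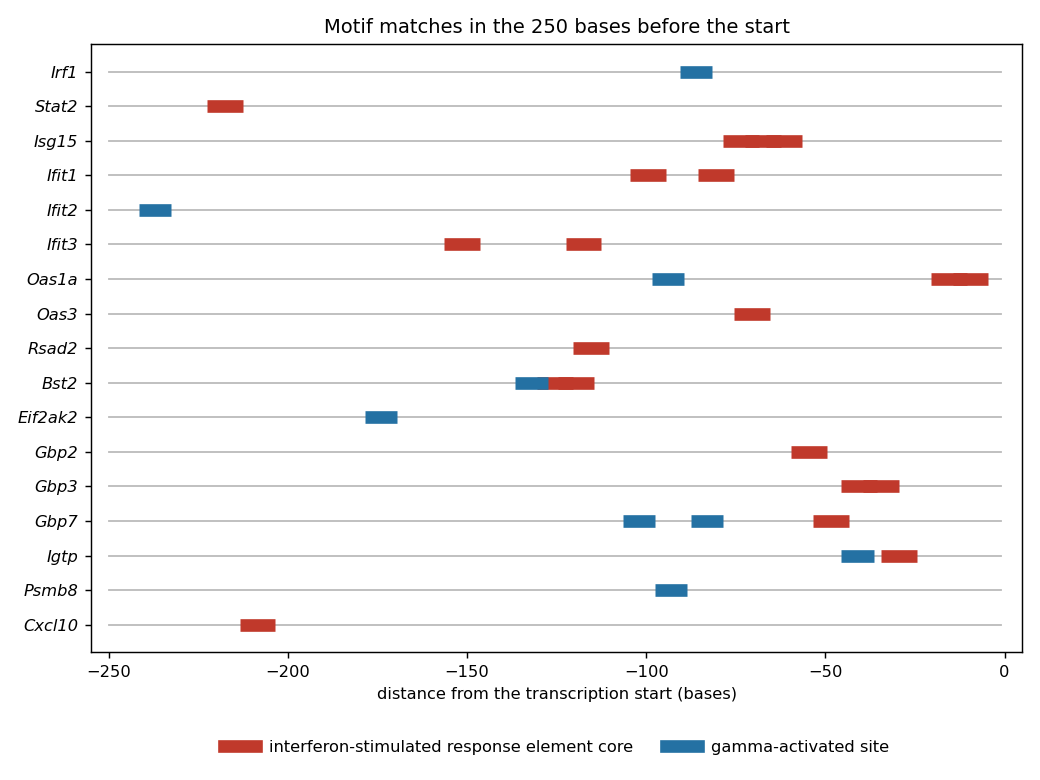
Position of each motif match, in bases before the RefSeq transcription start (0). Members with at least 1 match in the 250 bases before that start are shown. Red bars are response element cores and blue bars gamma-activated sites. Oas1a has the cores closest to the start, and the cores of Stat2 and Cxcl10 lie farthest from it.

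The values are RPKM (reads scaled to gene length and library depth), deposited by the authors and here scaled between libraries, so levels can be compared between genes. Depth behind the libraries, estimated from the steps between low values, ranged from 67.6 M to 99.8 M reads in the sham, day 14 bleomycin and pneumonectomy libraries and from 132.6 M to 200.2 M in the day 30 libraries. No member was listed at 0 in any library. The filter of at least 1 RPKM in at least 2 libraries was passed by 32 members and not by Oas3, Rsad2, Mx1, Mx2, Cxcl9 and Ifi44. Of the 32, Usp18, Oas1a, Oas2, Dhx58 and Zbp1 passed only through the day 14 bleomycin libraries, where they were high, so a fit without the filter, which held all 38, is given beside that with it. Changes are differences of log2(RPKM + 0.1) from 1 limma fit over all genes tested, with the standard error (SE) of the fit, and a member was called where its Benjamini-Hochberg adjusted p was under 0.05. The added 0.1 understates changes of genes near it.

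Markers of other cells also moved between the groups, and the part of these cells in the levels of the members described below was not tested. Summed over 8 endothelial markers, levels were 21.4 and 25.4 RPKM in sham, 242, 462 and 413 in day 14 bleomycin replicates 1, 2 and 3, 12.3 to 15.6 at day 30 and 20.1 to 45.4 after pneumonectomy, with 7 of 8 markers higher in every day 14 bleomycin library than in sham. The same count, 7 of 8, was higher in every pneumonectomy library, where Cdh5, for example, was at 2.58 to 7.80 RPKM against 0.628 and 1.44 RPKM in sham and 58.8 to 106.4 RPKM at day 14 after bleomycin. The exception in both was Tek, which was below sham after pneumonectomy (5.10 to 6.52 against 16.1 and 16.4 RPKM), and none of the 8 was at 0 throughout a group. Summed over 11 macrophage and monocyte markers, levels were 30.4 to 36.7 RPKM in sham and 128, 422 and 318 in the same 3 day 14 libraries. The sums were 217.7 to 728.7 at day 30 and 30.6 to 48.1 after pneumonectomy. Lyz2 made up most of each bleomycin sum, at 80.2, 257 and 208 RPKM at day 14 and 143 to 571 RPKM at day 30. None of the 11 markers separated all day 14 from all day 30 bleomycin libraries. Thus macrophage marker levels were raised at both bleomycin times, and 10 of 11 of these markers exceeded sham in every library at each, whereas the endothelial sums were raised at day 14 and not at day 30. The 6 fibroblast markers summed to between 2338 and 5409 RPKM in every library, but at day 14 after bleomycin 3 of them were below sham in every library and Col1a1 was above it. Dcn was at 106 to 147 RPKM there against 1433 and 1921 RPKM in sham, Lum at 32.0 to 33.0 against 172 and 138 RPKM, and Pdgfra at 27.7 to 40.0 against 60.7 and 72.9 RPKM. Day 30 replicate 3 stood apart with an epithelial marker sum of 1181 RPKM, against 5.65 to 13.4 RPKM in the other day 30 libraries, and without it 29 members were still lower and 2 higher at day 30 than at day 14. In such bulk RNA, more cells of a type and more RNA per cell cannot be told apart.

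Sex-linked transcripts also separated the libraries. Ddx3y, Kdm5d, Eif2s3y and Uty, which lie on the Y chromosome, were at 0 in all 5 day 30 libraries, and Xist was between 19.2 and 27.8 RPKM there. Sham replicate 1 held both Xist (16.5 RPKM) and Ddx3y (2.22 RPKM), and all other libraries had Xist at no more than 0.0273 RPKM. Comparisons with day 30 are therefore also comparisons of libraries that differ in these transcripts. The part of sex in them cannot be told apart from time. Sham replicate 1 also differs in Xist from every day 14 bleomycin and pneumonectomy library. The part of sex in the comparisons of those groups with sham was not tested.

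At day 14 after bleomycin most interferon-stimulated genes were higher than in sham. Of 32 members tested, 21 were higher, 3 were lower (Irf1, Ifit2 and Gbp2) and 8 did not pass, with a median log2 change of 0.97. Over all 12938 genes tested, 33.4% were called higher and 29.9% lower, with a median of 0.02. Without the filter, 26 of all 38 members were called higher, 3 lower and 9 neither (17.2% and 18.3% of 31266 genes), and the median was 1.13. All 3 libraries lay above both sham libraries for 22 of the 32 members tested and below them for 3, against 39.9% and 36.4% of all genes tested, and they lay above sham for 4 of the 6 members that did not pass the filter. Among the 27 members that passed the filter through other groups as well, 16 were higher, 3 lower and 8 not called, with a median of 0.71. The oligoadenylate synthetases, the Isg15 system and antigen processing were higher for each member tested, and the IFIT genes for none. Of these, Oas1a, Oas2 and Usp18 were tested only because they were high in the day 14 bleomycin libraries.

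**Figure D2:**
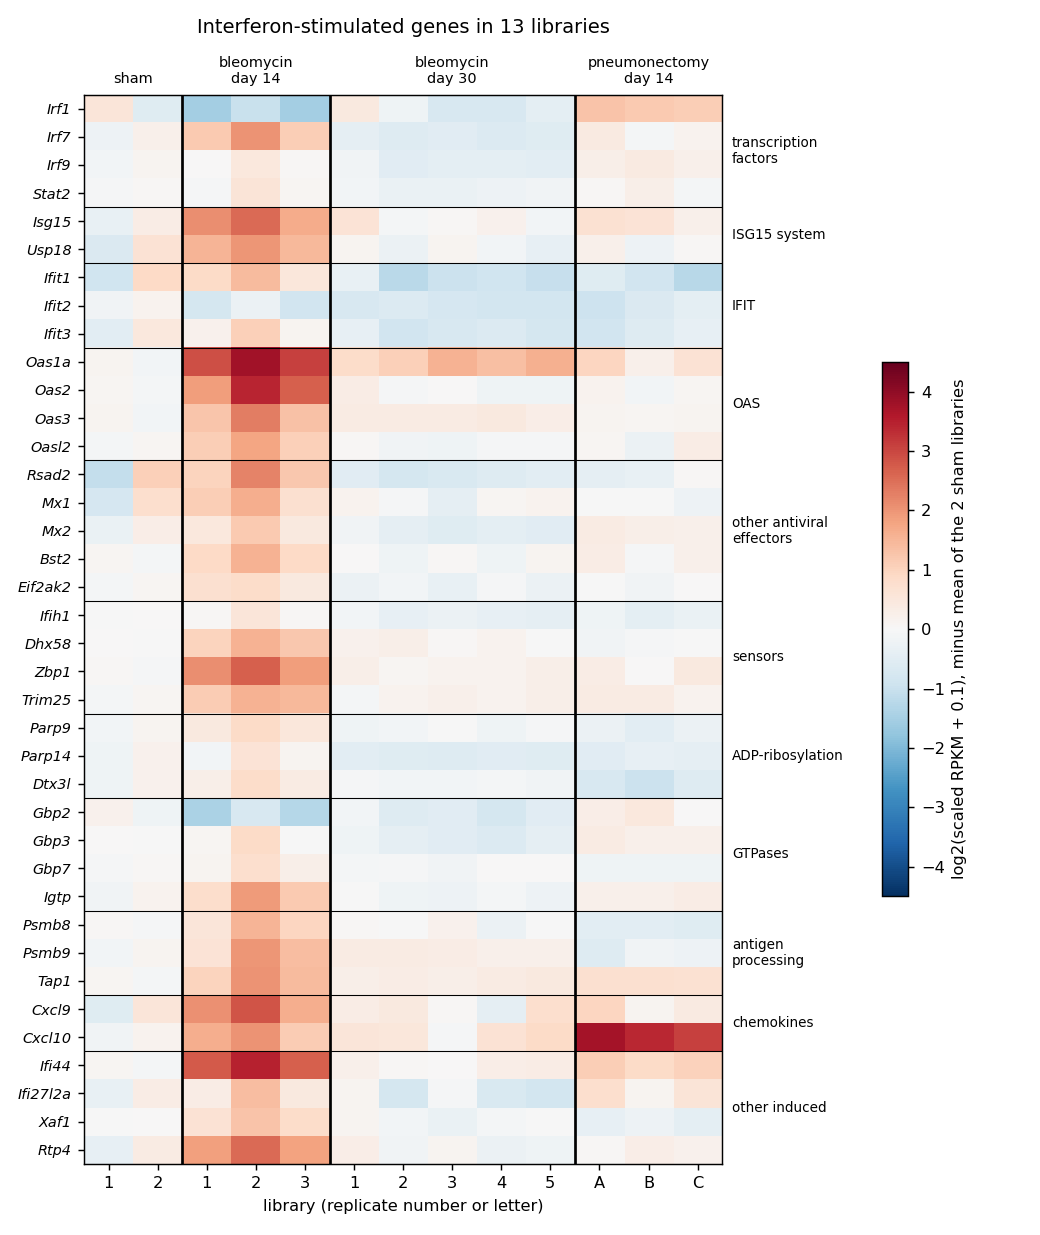
Level of each of the 38 members (rows, grouped by role) in each of the 13 libraries (columns), as log2(scaled RPKM + 0.1) minus the mean of the 2 sham libraries; red is above and blue below sham. Day 14 bleomycin columns are mostly red, with Irf1, Ifit2 and Gbp2 blue; day 30 columns lie near sham, and after pneumonectomy Cxcl10 and Irf1 stand out.

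The 3 day 14 bleomycin libraries differed in strength. Replicate 2 held the highest level of its group for all 38 members, and the highest of all 13 libraries for 34. Its median over the 38 members lay 1.56 above sham on the log2 scale, against 0.83 in replicate 1 and 0.94 in replicate 3. Replicate 2 also had the highest, and replicate 1 the lowest, endothelial and macrophage marker sums of the group, and the part of these cells in the members' levels was not tested. Without replicate 2, 19 of the tested members were still higher than sham and 3 lower, and their median log2 change fell from 0.97 to 0.75.

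Among the transcription factors, Irf7, the factor that amplifies type I interferon production (chr7:141262706-141266481), was at 1.46 and 1.99 RPKM in sham and at 3.95, 7.17 and 3.79 RPKM at day 14 after bleomycin. The groups did not overlap, and the log2 change was 1.43 ± 0.24 (SE; limma, adjusted p = 0.000279). Irf1, which is induced by interferon gamma and drives antigen processing genes (chr11:53770014-53778374), was at 29.4 and 13.6 RPKM in sham and at 6.91, 9.86 and 6.90 RPKM at day 14. It was thus below both sham libraries in all 3, with a log2 change of -1.35 ± 0.36 (adjusted p = 0.00599), but sham replicate 1 was also far above sham replicate 2, and without sham replicate 1 the change was -0.80 (adjusted p = 0.0975). Irf9 and Stat2, which act together in the type I response, changed by 0.18 ± 0.14 and 0.21 ± 0.16 and were not called.

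Isg15, which is conjugated to other proteins much as ubiquitin is (chr4:156199424-156200818), was at 2.07 and 3.37 RPKM in sham and at 11.6, 15.9 and 8.68 RPKM at day 14 after bleomycin. Every day 14 library lay above both sham libraries, and the log2 change was 2.11 ± 0.29 (adjusted p = 5.85e-05). Usp18, the protease that removes Isg15 from proteins and dampens receptor signalling, was higher by 1.66 ± 0.32.

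The IFIT proteins bind viral RNA, and their genes lie in 1 cluster of 99.3 kb on chromosome 19. Ifit1 (chr19:34640871-34650009) was at 0.705 and 2.64 RPKM in sham and at 2.62, 3.84 and 2.03 RPKM at day 14. Sham replicate 2 lay inside the day 14 range, and the log2 change of 0.93 ± 0.44 was not called (adjusted p = 0.0863). Without sham replicate 2 it was 1.82 (adjusted p = 0.00238), and on the scale as deposited 1.16 (adjusted p = 0.0337). Ifit3 (chr19:34583531-34588731) was at 2.63 and 5.22 RPKM in sham and at 4.23, 7.90 and 4.07 RPKM at day 14, with overlapping groups and a log2 change of 0.46 ± 0.31. Ifit2 was at 4.07 and 5.01 RPKM in sham and lower in all day 14 libraries (2.54, 3.72 and 2.41 RPKM; log2 change -0.65 ± 0.18, adjusted p = 0.00741), a call lost on the scale as deposited (-0.42, adjusted p = 0.0643) and without sham replicate 2 (-0.51, adjusted p = 0.0788).

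Oligoadenylate synthetases make the second messenger that activates RNase L. Oas1a (chr5:120896256-120907521) had the largest change of the 32 members tested, from 0.163 and 0.122 RPKM in sham to 1.69, 3.26 and 1.94 RPKM at day 14. The groups were well apart, and the log2 change was 3.25 ± 0.32 (adjusted p = 3.96e-06). Oas2, its neighbour in a cluster of 177.2 kb on chromosome 5, rose by 2.66 ± 0.36. Oasl2, which lies elsewhere on chromosome 5 (chr5:114896936-114912234), was at 1.85 and 2.11 RPKM in sham and at 4.37, 6.96 and 4.24 RPKM at day 14 (1.31 ± 0.20, adjusted p = 0.000161). Oas3, the member with the lowest estimated reads in a library (2.71), reached 0.461 RPKM at most and was called higher in the fit without the filter (1.63).

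Of the other antiviral effectors, Bst2 (tetherin, which holds budding virus at the cell surface; chr8:71534255-71537456) was the most abundant at day 14, at 28.5, 46.0 and 28.9 RPKM against 16.4 and 14.5 RPKM in sham. All 3 libraries exceeded sham, and the log2 change was 1.12 ± 0.19 (adjusted p = 0.000371). Eif2ak2, the kinase PKR that halts translation on sensing double-stranded RNA (chr17:78852564-78882573), was at 2.14 and 2.48 RPKM in sham and at 3.85, 4.16 and 3.18 RPKM at day 14, a change of 0.66 ± 0.12 (adjusted p = 0.000448). Rsad2, Mx1 and Mx2, which restrict virus replication, reached at most 1.40 RPKM (Rsad2 in replicate 2). Without the filter they were called higher by 1.48, 1.15 and 0.71, and for Rsad2 and Mx1 sham replicate 2 (0.569 and 0.391 RPKM) lay inside the day 14 range.

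Among the sensors, Zbp1, which detects left-handed nucleic acid and can start necroptosis (chr2:173206612-173218923), was at 0.518 and 0.461 RPKM in sham and at 2.38, 3.73 and 2.04 RPKM at day 14. It did not overlap between groups and rose by 2.21 ± 0.21 (adjusted p = 3.55e-06). Trim25, the ubiquitin ligase that acts in RIG-I signalling (chr11:88999376-89020293), was at 2.53 and 2.84 RPKM in sham and at 5.97, 8.12 and 7.60 RPKM at day 14. Its change of 1.39 ± 0.13 (adjusted p = 3.58e-06) had the smallest p of the group after that of Zbp1, and replicate 3 was nearly as high as replicate 2. Dhx58 (LGP2) rose by 1.26 ± 0.17, and Ifih1 (MDA5), with a change of 0.22 ± 0.15, was not called. Zbp1 and Dhx58 were tested only because they were high in the day 14 bleomycin libraries.

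Parp9 and Dtx3l, whose products form a complex, lie head to head on chromosome 16 and share 458 bases of exon on opposite strands. As the kit does not mark strand, reads there cannot be assigned. In all, 17 members have an exon that overlaps another gene, 12 of them on the opposite strand. Further examples are Psmb8 with Gm20496 (498 bases, opposite strand), Gbp7 with Gm43802 (637 bases, same strand) and Rtp4 with Gm45338 (296 bases, same strand). Parp9 (chr16:35938470-35972605) was at 2.24 and 2.61 RPKM in sham and at 3.30, 4.51 and 3.48 RPKM at day 14, above sham in all 3 libraries (0.61 ± 0.12, adjusted p = 0.00117). Dtx3l rose by 0.50 ± 0.17, but leaving out sham replicate 1 (0.30, adjusted p = 0.22) or day 14 replicate 2 (0.32, adjusted p = 0.0687), or fitting only the compared groups (adjusted p = 0.101), ended the call. Parp14, in the same cluster of 139.7 kb, changed by 0.20 ± 0.17 and was not called.

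The interferon-inducible GTPases did not move together. Igtp (chr11:58199556-58207591) was at 1.71 and 2.15 RPKM in sham and at 3.39, 7.51 and 4.48 RPKM at day 14, a change of 1.30 ± 0.24 (adjusted p = 0.000573) without overlap. Gbp2 (chr3:142620602-142638008), the most abundant of them, went the other way, from 24.1 and 18.6 RPKM in sham to 7.80, 12.7 and 8.70 RPKM at day 14. All 3 libraries lay below sham, and the log2 change was -1.15 ± 0.22 (adjusted p = 0.000849). Its neighbours within a cluster of 107.7 kb changed by 0.30 ± 0.21 (Gbp3, not called) and 0.39 ± 0.14 (Gbp7, adjusted p = 0.0352). The Gbp7 call was lost without the filter (adjusted p = 0.0636), with only the compared groups fitted (adjusted p = 0.16), and without either sham library or day 14 replicate 2.

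Psmb8 and Psmb9 replace proteasome subunits to form the immunoproteasome, Tap1 carries its peptides to class I molecules, and the 3 genes lie within 19.5 kb on chromosome 17. Psmb8 (chr17:34197721-34201454) was at 3.16 and 2.91 RPKM in sham and at 4.47, 8.88 and 6.06 RPKM at day 14. It was higher in all 3 libraries, by 1.01 ± 0.21 (adjusted p = 0.00135). Psmb9 rose by 1.32 ± 0.29 and Tap1 by 1.48 ± 0.20; their first exons overlap by 212 bases on opposite strands.

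Cxcl10, a chemokine that draws T cells through Cxcr3 (chr5:92346638-92348889), was at 1.62 and 2.03 RPKM in sham and at 5.83, 7.69 and 4.09 RPKM at day 14 after bleomycin. The groups did not overlap, and the change was 1.60 ± 0.29 (adjusted p = 0.000563). Cxcl9, which lies beside it and acts on the same receptor, was between 0.418 and 1.10 RPKM at day 14 and at or under 0.225 RPKM in all other libraries, and was called higher in the fit without the filter (2.17). Of the other induced genes, Rtp4 (chr16:23520291-23614222), a chaperone of taste and opioid receptors, was at 0.946 and 1.65 RPKM in sham and at 4.80, 7.80 and 4.68 RPKM at day 14 (2.08 ± 0.26, adjusted p = 2.9e-05). Ifi27l2a (chr12:103442167-103443680), a small membrane protein, was at 8.64 and 13.6 RPKM in sham and at 13.5, 28.6 and 14.7 RPKM at day 14, with overlapping groups and no call (0.71 ± 0.38, adjusted p = 0.117). Xaf1 rose by 0.92 ± 0.17, and Ifi44, from 0.0502 and 0.0306 RPKM in sham to 0.841, 1.46 and 0.802 RPKM at day 14, was called higher in the fit without the filter (2.97).

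**Figure D3:**
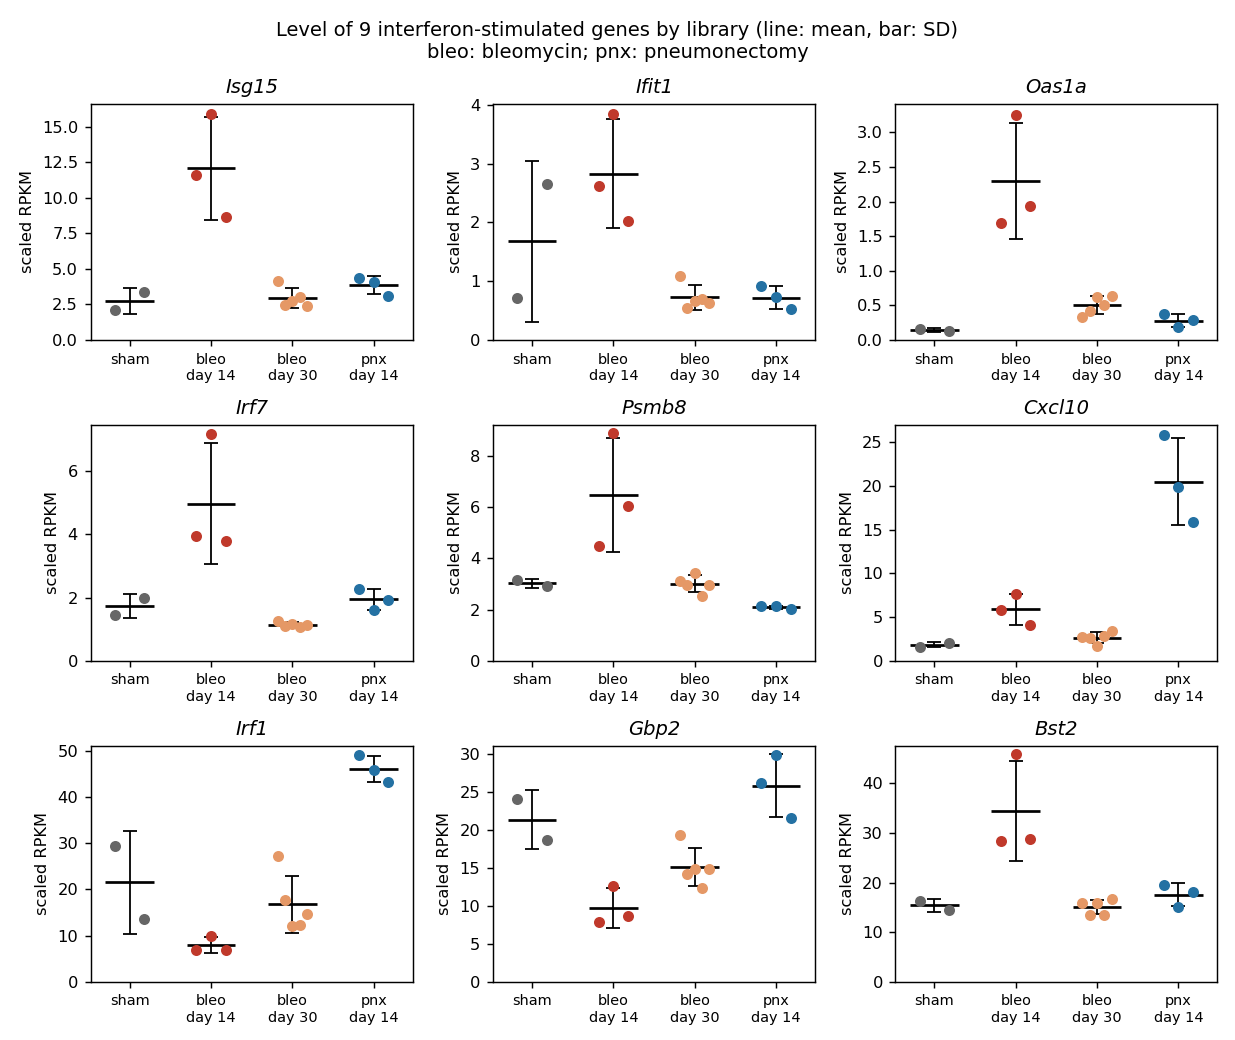
Scaled RPKM of 9 members in each library (points), with the mean (line) and SD (bar) of each group; each panel has its own axis from 0. Isg15, Oas1a, Irf7, Psmb8 and Bst2 are highest at day 14 after bleomycin, Cxcl10 and Irf1 are highest after pneumonectomy, Gbp2 is lowest at day 14 after bleomycin, and a sham library of Ifit1 lies among the day 14 bleomycin libraries.

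After pneumonectomy, at the same day, most members were not called against sham. Of the 32 tested, 3 were higher (Cxcl10, Irf1 and Tap1), 2 were lower (Ifit2 and Dtx3l) and 27 were not called, with a median log2 change of 0.06. Over all genes tested, 22.6% were called higher and 19.3% lower. All 3 libraries lay above both sham libraries for 8 of the 32 members tested and below them for 10. The shares over all genes tested were 32% and 29.1%. Without the filter, 4 of 38 were higher, Ifi44 (1.01) being the addition, 2 were lower and 32 not called (10.2% and 9.70% of 31266 genes). The count of lower members depended on the scaling, since 2 were higher and 9 lower on the scale as deposited, and 3 higher and 7 lower with upper-quartile scaling. It also depended on sham: without sham replicate 2, Cxcl10 was the only member still called, and without sham replicate 1, 3 were higher and 6 lower.

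Cxcl10 reached 25.8, 19.8 and 15.8 RPKM in pneumonectomy libraries A, B and C, above every other library of the study. The change from sham was 3.40 ± 0.29 (adjusted p = 1.1e-05), and Cxcl10 was lower at day 14 after bleomycin than after pneumonectomy by 1.80 on the log2 scale (± 0.26, adjusted p = 7.63e-05). Cxcl9 was at 0.225, 0.0842 and 0.124 RPKM after pneumonectomy, within the range of the 2 sham libraries in B and C. Epithelial markers also differed here, with 5 of 5 above sham in every pneumonectomy library and sums of 604, 118 and 47.5 RPKM in A, B and C against 11.0 and 15.3 in sham, and their part in the level of Cxcl10 was not tested. An antisense partner, Art3, shares 133 bases of exon with Cxcl10.

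Irf1 was at 49.1, 45.8 and 43.4 RPKM after pneumonectomy, above all other libraries, with a change from sham of 1.20 ± 0.36 (adjusted p = 0.0196). Leaving out sham replicate 2 (0.64, adjusted p = 0.238) or library A (1.15, adjusted p = 0.0502) ended this call. Tap1 was at 1.48 and 1.31 RPKM in sham and at 2.36, 2.36 and 2.29 RPKM after pneumonectomy, a change of 0.70 ± 0.20 (adjusted p = 0.017). Tap1 was not called on the scale as deposited (0.49, adjusted p = 0.076) or with sham replicate 2 left out (0.62, adjusted p = 0.11). Psmb8, its neighbour, was lower than sham in all 3 libraries (2.13, 2.13 and 2.03 RPKM), a change of -0.51 ± 0.21 that was not called (adjusted p = 0.0714), though it was on the scale as deposited (-0.72, adjusted p = 0.0167) and with upper-quartile scaling (-0.64, adjusted p = 0.0232).

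Dtx3l was at 1.58 and 2.11 RPKM in sham and at 1.05, 0.883 and 1.18 RPKM after pneumonectomy (-0.76 ± 0.17, adjusted p = 0.00382). Ifit2 was at 2.33, 2.86 and 3.32 RPKM, below both sham libraries (-0.67 ± 0.18, adjusted p = 0.0115). Neither call held without sham replicate 2 (adjusted p = 0.0571 for Dtx3l and 0.113 for Ifit2). Isg15 was at 4.35, 4.09 and 3.12 RPKM after pneumonectomy, overlapping sham, with a change of 0.51 and a 95% interval from -0.11 to 1.14. The interval for Oasl2 ran from -0.40 to 0.49, that for Bst2 from -0.25 to 0.60 and that for Zbp1 from -0.20 to 0.73, so changes of the size seen for these 3 after bleomycin lay outside them.

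The direct comparison of the 2 challenges at day 14 gave 24 members higher after bleomycin, 3 higher after pneumonectomy (Irf1, Gbp2 and Cxcl10) and 5 not called, with a median log2 difference of 1.04. Over all genes tested, 36.2% were higher after bleomycin and 34.6% higher after pneumonectomy. Without the filter, 29 of the 38 were higher after bleomycin, 3 higher after pneumonectomy and 6 not called (19.4% and 20.3% of all genes in that fit). This comparison and each comparison with sham share libraries, so they are not independent. The 24 included Oas1a (2.64 ± 0.28), Oas2 (2.63 ± 0.32), Zbp1 (1.95 ± 0.19), Rtp4 (1.89 ± 0.23) and Isg15 (1.59 ± 0.26). They also included Ifit1 (1.82 ± 0.40) and Ifit3 (1.06 ± 0.28), which had not been called against sham. Oas1a, Oas2 and Zbp1 were tested only because they were high in the day 14 bleomycin libraries. Among the 27 members that passed the filter through other groups as well, 19 were higher after bleomycin. Another 3 were lower and 5 not called, with a median of 0.94. Irf1 was lower after bleomycin by 2.55 on the log2 scale (± 0.32, adjusted p = 2.4e-05) and Gbp2 by 1.42 (± 0.20, adjusted p = 5.78e-05). The libraries of the 2 groups did not overlap for 24 of the 32 members tested with bleomycin higher (37.7% of all genes tested) and for 3 with pneumonectomy higher (36.5%). The count of 24 was the same without any 1 of the 6 libraries.

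**Figure D4:**
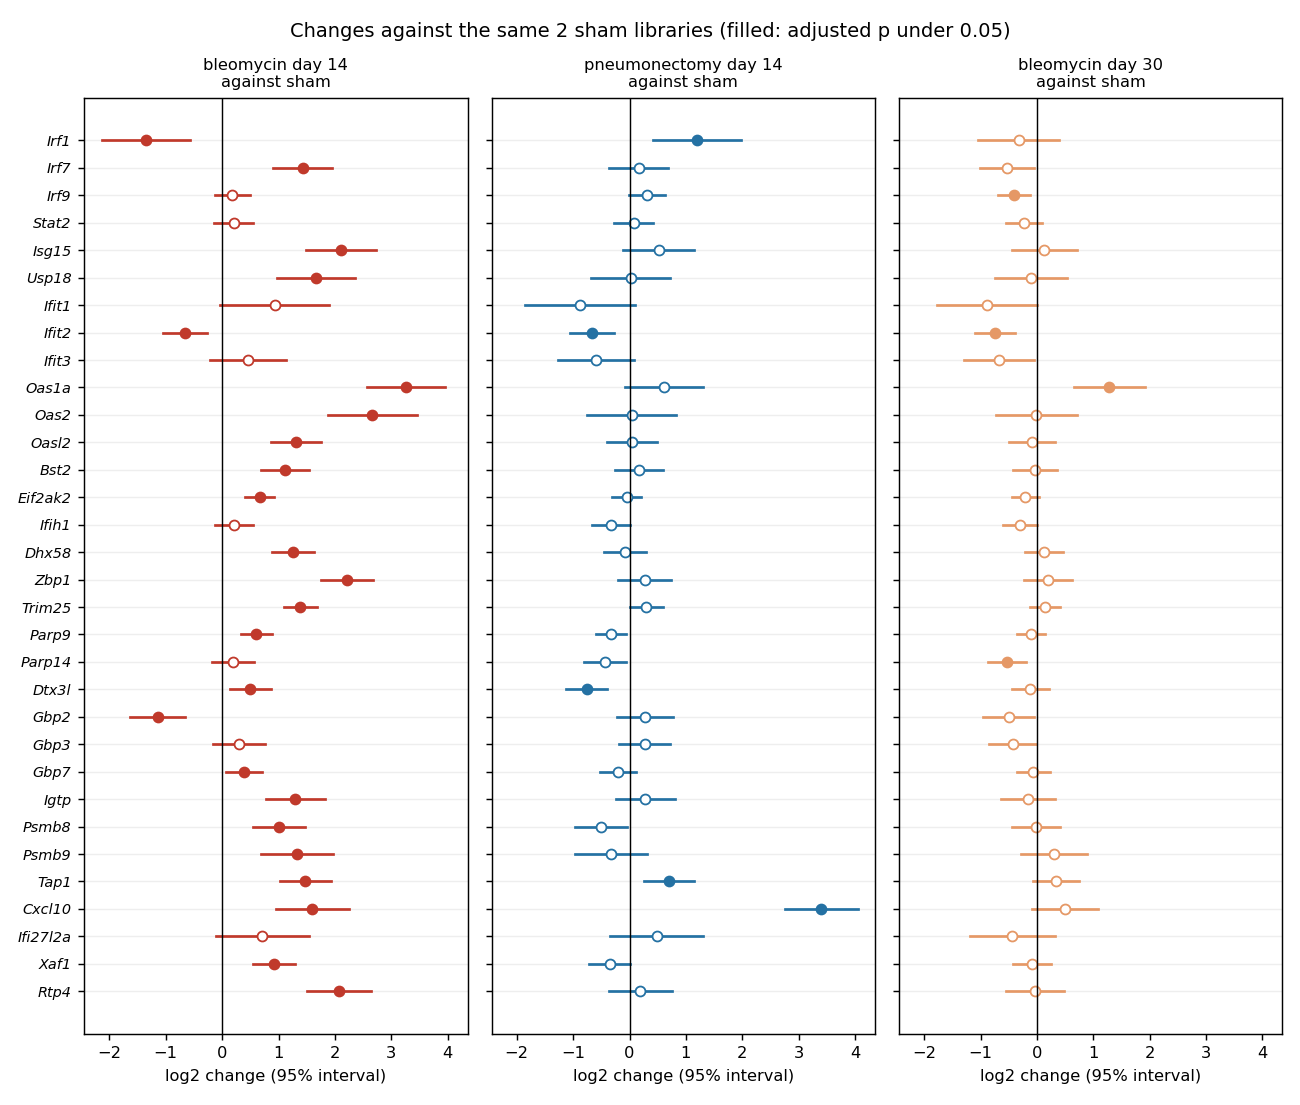
Log2 change of the 32 members tested (points) with its 95% interval (bars) in 3 comparisons that share the same 2 sham libraries; filled points have an adjusted p under 0.05. At day 14 after bleomycin 24 points are filled, after pneumonectomy 5 and at day 30 after bleomycin 4.

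By day 30 after bleomycin the members had come down from day 14. Of 32 tested, 29 were lower at day 30, 2 were higher (Irf1 and Gbp2) and Ifit2 (-0.10 ± 0.14) was not called, with a median log2 difference of -1.12. Over all genes tested, 30.7% were lower and 28.9% higher. For 29 of the 32 members tested every day 30 library lay below every day 14 library (30.8% of all genes tested), and in the fit without the filter 35 of the 38 members were lower (15.2%) and 2 higher (15.4%). Among the largest differences were those of Oas2 (-2.68 ± 0.29), Rtp4 (-2.12 ± 0.21), Zbp1 (-2.03 ± 0.17), Isg15 (-1.98 ± 0.23), Irf7 (-1.97 ± 0.19) and Oas1a (-1.97 ± 0.25). Of these, Oas2, Zbp1 and Oas1a were tested only because they were high in the day 14 bleomycin libraries. Among the 27 members that passed the filter through other groups as well, 24 were lower at day 30. Another 2 were higher and 1 was not called, with a median of -1.02. Isg15 was between 2.41 and 4.11 RPKM at day 30 (median 2.76), Bst2 between 13.5 and 16.7 RPKM and Irf7 between 1.07 and 1.27 RPKM, and none of the 3 overlapped day 14.

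Of the 3 members that had been lower than sham at day 14, Irf1 and Gbp2 moved the other way, whereas Ifit2 was not called between the times. Irf1 was at 27.2, 17.6, 12.0, 12.2 and 14.8 RPKM in day 30 replicates 1 to 5, above all 3 day 14 libraries (1.03 ± 0.29, adjusted p = 0.00888). Gbp2 was at 19.3, 14.2, 14.9, 12.3 and 14.8 RPKM, of which replicate 4 overlapped the highest day 14 library (0.65 ± 0.18, adjusted p = 0.00857). Cxcl10 was at 1.73 to 3.36 RPKM, below day 14 (-1.10 ± 0.24, adjusted p = 0.00172). Macrophage marker sums at day 30 (217.7 to 728.7 RPKM) overlapped those of day 14 (128 to 422 RPKM), while endothelial sums fell from 242 to 462 RPKM at day 14 to 12.3 to 15.6 RPKM at day 30, and the part of either cell type in the members' fall was not tested.

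**Figure D5:**
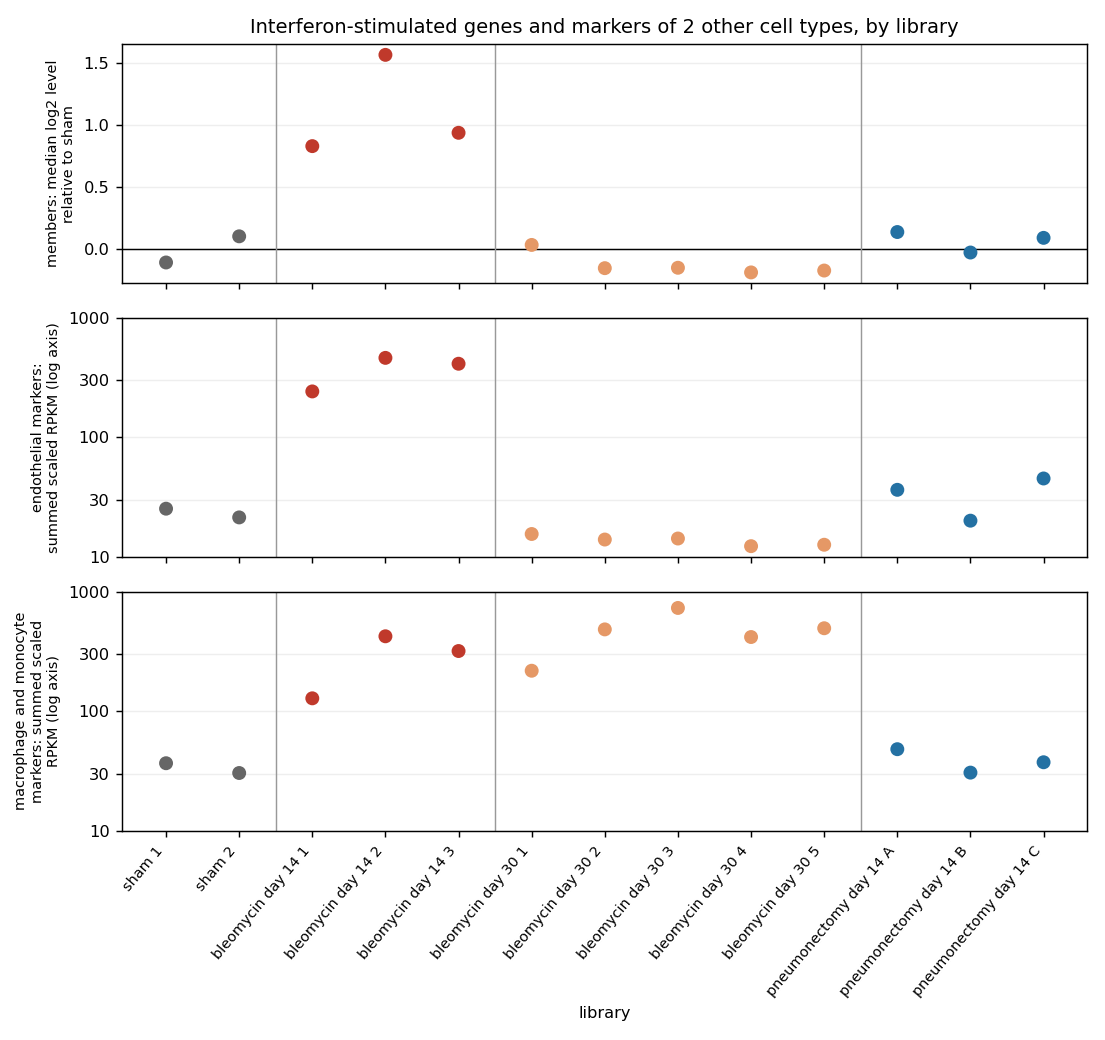
Top, the median over all 38 members of the log2 level relative to the sham mean, by library. Middle and bottom, summed scaled RPKM of 8 endothelial and 11 macrophage and monocyte markers on log axes. The members and the endothelial markers are raised at day 14 after bleomycin and not at day 30, and the macrophage markers are raised at both.

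Compared with sham, the day 30 members showed few changes. Oas1a was higher, 3 members were lower (Ifit2, Parp14 and Irf9), and 28 of 32 were not called, with a median of -0.11. Over all genes, 14.8% were higher and 14.1% lower. Without the filter, 1 of 38 was higher and 2 lower (6.52% and 6.88%). All 5 libraries lay above sham for 4 of the 32 members and below it for 7, against 22.7% and 22.3% of all genes tested. On the scale as deposited 1 member was higher and 1 lower, and without sham replicate 2 none was called in either direction. Oas1a was at 0.330, 0.413, 0.620, 0.510 and 0.628 RPKM in replicates 1 to 5 against 0.163 and 0.122 RPKM in sham, with no overlap (1.28 ± 0.29, adjusted p = 0.00758). The call was lost with 1 RPKM added in place of 0.1 (0.39, adjusted p = 0.0732) and without sham replicate 2 (1.16, adjusted p = 0.0702). Ifit2 (2.49 to 2.89 RPKM; -0.75 ± 0.16), Parp14 (1.71 to 1.88 RPKM; -0.53 ± 0.16) and Irf9 (2.10 to 2.72 RPKM; -0.40 ± 0.13) lay below both sham libraries in all 5. The Irf9 call was also lost without any 1 of replicates 2, 3, 4 and 5 (adjusted p = 0.0665 to 0.0738). Ifit1 (0.549 to 1.08 RPKM) overlapped sham and was not called (-0.88 ± 0.41), and its value was set by sham replicate 2, without which the difference was 0.00071.

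The 2 sham libraries differed from each other in both directions. Replicate 2 was higher for 26 of the 38 members, among them Rsad2 (0.0532 and 0.569 RPKM in replicates 1 and 2), Mx1 (0.0758 and 0.391 RPKM) and Ifit1 (0.705 and 2.64 RPKM). Replicate 1 was higher for 12, among them Irf1, Oas1a, Bst2 (16.4 and 14.5 RPKM) and Zbp1. With n = 2, each comparison with sham takes the spread of sham to be that of all groups together.

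The other genes of the pathway were followed with a separate list of 81 genes, of which 80 were found and 63 tested. Interferon genes themselves were scarcely detected, since none of the 7 ligands listed (Ifnb1, Ifna2, Ifna4, Ifne, Ifng, Ifnl2 and Ifnl3) exceeded 0.0576 RPKM, the level of Ifng in day 14 bleomycin replicate 2, and 3 were at 0 in every library. The receptor subunits were expressed in all groups, for example Ifnar1 at 6.18 to 7.39 RPKM and Ifngr1 at 17.0 to 27.7 RPKM, both chosen after their values were seen. Of the 5 receptor genes tested, 3 were higher and none lower at day 14 after bleomycin, and 2 were higher after pneumonectomy (33.4% and 22.6% of all genes tested were higher in these comparisons).

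The genes of this paragraph were named for having the smallest p of the list across the groups. That they differed between groups was therefore set by the choice. As log2 changes with the SE, Stat3 (1.21 ± 0.10), Irf8 (1.40 ± 0.13) and the kinase Jak1 (0.62 ± 0.09) were higher than sham after pneumonectomy, where most members were not called. There 22.6% of all genes tested were higher. Irf8 was also higher at day 30 (0.98 ± 0.12), and not called at day 14 after bleomycin (0.24 ± 0.13). Adar, an interferon-induced editor of double-stranded RNA, was higher at day 14 after bleomycin (0.70 ± 0.08), and Pias1, a SUMO ligase that inhibits interferon signalling, was lower than sham in all 3 groups (-0.80 ± 0.07, -0.37 ± 0.07 and -0.31 ± 0.07 at day 14 and after pneumonectomy and at day 30).

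Of 24 further interferon-induced genes tested, 13 were higher and 3 lower at day 14 after bleomycin (median 0.43), 5 higher and 3 lower after pneumonectomy (median 0.04), and 1 higher and 2 lower at day 30, each against sham. Of 13 antigen presentation genes, which include class II genes, 10 were higher and 1 lower at day 14 after bleomycin (median 0.66), 2 higher and 2 lower after pneumonectomy, and none was called at day 30. Over all genes tested, 33.4% were higher and 29.9% lower at day 14 after bleomycin, 22.6% and 19.3% after pneumonectomy, and 14.8% and 14.1% at day 30, so the 5 of 24 higher after pneumonectomy are near that share. At day 30 against day 14, 18 of the 24 induced genes and 10 of the 13 antigen presentation genes were lower, against 30.7% of all genes. Other classes of the list did not rise in this way at day 14 after bleomycin against sham. Of 9 kinases, STAT factors and inhibitors, 3 were higher and 3 lower (median -0.10). Of 12 upstream sensors and adaptors tested, 4 were higher and 2 lower (median 0.09). Over the 63 tested genes of the list, 33 were higher and 9 lower at day 14 after bleomycin against sham, with a median of 0.32.

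Members with and without the promoter elements were both among those that rose. In the fit without the filter, 7 of the 13 members with a response element core were higher and 1 lower at day 14 after bleomycin (median log2 change 1.12), and 11 of the 15 members without a match in the table's promoters were higher and 2 lower (median 1.01). For the gamma-activated site, 5 of 8 were higher and 2 lower with a match (median 0.84). Without a match, 13 of 20 were higher and 1 lower (median 1.32). The shares over all 31266 genes of that fit were 17.2% higher and 18.3% lower. Gbp2 and Cxcl10 carry a core in the windows printed above and yet moved in opposite directions at day 14 after bleomycin, as did Irf1 and Psmb8, which carry a gamma-activated site. These counts describe the members and were not tested.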

How the data were processed

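RNA-seq of 13 mouse lung fibroblast libraries was used as RPKM, which the authors deposited for the mm10 assembly (per the submitters' processing notes); the aligner and read counter are not given in the sources used here. Groups and replicate numbers came from the labels. RPKM were scaled with trimmed-mean factors (30% of ratios, 5% of levels; factors 0.814 to 1.18), 0.1 was added, and log2 values of 12938 genes (1 RPKM or more in no fewer than 2 libraries) were fitted with limma 3.58.1 in R 4.3.3 (trend, robust), with a mean per group and 5 contrasts. A count model was planned only in case the deposited values were counts, and it was not used because they were RPKM. The code was tested on simulated data. Depth came from ratios of values under 0.03 RPKM and GENCODE M21 lengths; estimates cover counting error only. Alternatives changed the pseudocount, filter, scaling, libraries and replicate block. Members and lists were chosen with earlier results of these data known. In each role group, members with full values were named by rule. These were a panel of 6 and the members with the highest mean or the smallest F-test p. Pathway genes given with log2 changes had the smallest F-test p of their list. Others named were chosen after their values were seen. The values of 1 pathway gene are not reported here.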

Additional observations from a re-analysis of the deposited data

Results flagged for a closer look

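In the 5 day 30 bleomycin libraries, replicate 1 stood apart for 3 of the 38 members checked, with Irf9 at 2.72 RPKM, Ifit1 at 1.08 RPKM and Trim25 at 2.52 RPKM. Irf9 and Ifit1 were highest there and Trim25 lowest, and chance alone marks about 1 in 20 such groups. The same replicate held the highest level of its group for 21 members.

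The change from sham differed between day 30 and day 14 after bleomycin for the 18 members given in full. Sham cancels in this difference, so it is the comparison of day 30 with day 14 in the report and adds no evidence to it. The 18 were chosen in part by the smallest p across the groups, and 30.7% of all genes tested were lower and 28.9% higher. Oas1a and Zbp1 were tested only because they were high in the day 14 bleomycin libraries. The log2 difference, day 30 minus day 14, was -1.97 for Irf7, -1.98 for Isg15, -1.81 for Ifit1, -1.13 for Ifit3, -1.97 for Oas1a and -1.39 for Oasl2. It was -1.15 for Bst2, -0.88 for Eif2ak2, -2.03 for Zbp1, -1.24 for Trim25, -0.71 for Parp9 and -1.45 for Igtp. For Psmb8 it was -1.03, for Cxcl10 -1.10, for Ifi27l2a -1.15 and for Rtp4 -2.12. Irf1 (1.03) and Gbp2 (0.65) differed in the other direction.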

How the results depend on the processing

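Over the alternatives and all tested members, 1912 of 2048 values kept their direction and call, 39 lost the call, 36 gained it and 61 changed sign. Of these 61, 1 was called: the log2 difference of Irf9, day 14 bleomycin against pneumonectomy, was -0.12 and became 0.33 on the scale as deposited (adjusted p = 0.0346). With a pseudocount of 1 RPKM the median log2 change was 0.65 (day 14 bleomycin against sham), 0.81 (against pneumonectomy) and -0.86 (day 30 against day 14), and 0 members were higher at day 30 than in sham. On the scale as deposited, which moved the median of all genes by 0.23, 0.45 and -0.21 (day 14 bleomycin against sham and against pneumonectomy, and pneumonectomy against sham), the first 2 medians were 1.21 and 1.49, and 9 members were lower after pneumonectomy and 1 lower at day 30. With upper-quartile scaling 7 were lower after pneumonectomy. Fitting only the groups compared gave 2 higher and 5 lower at day 30 against sham. With the replicate block this was 0 higher and 0 lower (from 1 and 3), and Psmb8 changed by 0.045. The numbers did not pair the libraries (correlations of same-numbered deviations -0.13 to 0.14), and pneumonectomy carries none.

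Leaving out 1 library at a time gave medians of 0.75 to 1.14 (day 14 bleomycin against sham), 0.78 to 1.21 (against pneumonectomy) and -1.27 to -0.83 (day 30 against day 14). Against sham, 1 to 3 members were higher and 0 to 6 lower after pneumonectomy, and 0 to 1 higher and 0 to 4 lower at day 30. Sham replicates set the ends for pneumonectomy. Among called members and the panel of 6, sign changes were those of Irf7 after pneumonectomy (-0.046 as deposited, -0.048 to 0.38 without 1 library), Ifit1 (-1.77 to 0.00021 after pneumonectomy, -1.77 to 0.00071 at day 30), Isg15 at day 30 (-0.21 to 0.47) and Psmb8 at day 30 (0.10 as deposited, -0.077 to 0.041 without 1 library). The cause was not tested. The shallowest members rest on few reads (Oas3, 2.71 estimated reads).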

Other observations

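Markers of plasmacytoid dendritic cells, known as strong producers of type I interferon, summed to 7.01 and 7.18 RPKM in sham, 8.70 to 9.41 RPKM at day 14 after bleomycin, 7.28 to 9.96 RPKM at day 30 and 8.33 to 8.72 RPKM after pneumonectomy (3 markers, Bst2 left out as a member). Nearly all of each sum was Tcf4 (6.93 to 9.94 RPKM), whereas Siglech, the most specific of the 3, was at 0.0318 and 0.0425 RPKM in sham and lower in every day 14 bleomycin library (0.00336 to 0.0180 RPKM), and Ccr9 was at or under 0.0336 RPKM throughout. Lymphocyte markers summed to 0.649 to 1.55 RPKM at day 14 after bleomycin and to 2.40 to 5.55 RPKM after pneumonectomy, against 0.648 to 1.21 RPKM in sham and 0.539 to 0.759 RPKM at day 30. Most of the pneumonectomy sums was Cd3e (1.86 to 4.87 RPKM). Cd3g (0.0457 to 0.0639 RPKM) lay within the sham range there, and 2 of the 6 markers were above and 1 below sham in every pneumonectomy library. Granulocyte markers summed to 0.932 and 14.2 RPKM in sham, 21.2 to 31.4 RPKM at day 14 after bleomycin, 21.0 to 61.1 RPKM at day 30 and 0.792 to 7.38 RPKM after pneumonectomy. Their part in the members' levels was not tested.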
